A study of Mus musculus with 6 samples.

Results

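The axon guidance ligands and receptors of mouse embryonic fibroblasts (MEFs) were followed after an RNA hairpin (shRNA) against Ube2o. The members were 48 listed genes of the Eph receptor, ephrin, semaphorin, plexin, Slit, Robo, netrin, Unc5 and Flrt families. They were matched by gene symbol or synonym to the probes of an Illumina BeadChip, a single-colour microarray. Of the 48 genes, 46 were measured among 20289 genes with a symbol, and Sema3d and Ntn1 were not analysed here. A gene is given by its brightest probe over the 6 arrays, and all 5 probes are given for Epha3.

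The MEFs came from C57BL6 embryos at day 13.5 and stably expressed an shRNA against GFP, the control, or against Ube2o, with 3 arrays for each. UBE2O is an enzyme that passes ubiquitin to substrates and combines conjugating and ligase activity, and the study asked which genes respond to its loss. The titles name an shRNA for both groups, while 1 other label of the Ube2o arrays names an siRNA; the titles were followed. All 3 Ube2o columns carry the name of the same hairpin, so other effects of that hairpin cannot be told apart from those of Ube2o loss. The labels describe the MEFs as independent but name no embryos, so p-values reflect how far these arrays vary, part of which may be technical.

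Guidance molecules were first described in growing axons, and most are also made by mesenchymal cells, where they act on adhesion, migration and vessel patterning. Eph receptors are receptor tyrosine kinases that bind ephrins on neighbouring cells, EphA receptors mostly the lipid-anchored ephrin-A proteins and EphB receptors mostly the transmembrane ephrin-B proteins, and both sides can signal. Semaphorins signal through plexins, with neuropilins as partners for most secreted class 3 members. Slits are secreted ligands of Robo receptors, netrins bind DCC-family and Unc5 receptors, and Flrt proteins are membrane proteins that bind Unc5 receptors and latrophilins.

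Median deposited signals lay between 153.0 and 173.6, and 43.1% to 44.9% of an array's probes exceeded a background estimated from the dim ones. Arrays correlated at 0.991 to 0.992 within a group and at 0.983 to 0.986 between groups on the log2 scale. Ube2o itself had a limma log2 change of -1.45 (SE 0.12, adjusted p = 3e-07), and its groups did not overlap. All 13 fibroblast markers lay above background on all arrays. Markers of other cell types were mixed. Above background on all 6 arrays were 3 of 13 neuron, 3 of 10 leukocyte, 2 of 8 skeletal muscle, 1 of 9 endothelial, 1 of 6 glial and 0 of 8 epithelial markers. Above background on 0 arrays were 5, 6, 5, 6, 4 and 5 markers of these lists. Among the latter were Sox10 (neural crest glia), Cdh5 (endothelium), Epcam (epithelium), Myod1 (muscle) and the leukocyte genes Ptprc and Adgre1.

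Guidance genes moved in both directions with Ube2o shRNA. Of the 46 measured members, 5 rose (Epha3, Flrt2, Ephb2, Flrt3 and Unc5c), 7 fell (Sema3c, Slit3, Sema3f, Efnb1, Efna4, Slit2 and Plxnd1) and 34 did not pass an adjusted p of 0.05 in limma over all probes. These are 10.9% and 15.2% of the measured members. By the same rule 2.92% of all genes were called higher and 3.96% lower, and 2.27% and 2.69% of all probes (1026 and 1220, against 567 and 1544 with median scaling). The members were chosen with earlier results of these data known, so these shares cannot tell whether guidance genes respond more often than other genes. Of 33 other measured guidance receptors and ligands, 2 rose and 1 fell. Among the members as processed Sema3c had the largest fall, 3.10-fold, while Flrt2 rose 2.36-fold and Epha3 was at least 2.29-fold higher. Of 24 measured ligand genes among the members (ephrins, semaphorins, Slits and a netrin), 6 fell and the other 18 did not pass. Of 20 receptor genes among the members 3 rose and 1 fell, and both Flrt members, Flrt2 and Flrt3, rose. Flrt1, counted with the other guidance genes, had a log2 change of -0.034 and did not pass. The difference between ligands and receptors was not tested. The median log2 change was 0.062 over the members and 0.0026 over all genes. The groups did not overlap for 10 members with Ube2o shRNA higher and for 9 with it lower, where 12.7% and 12.9% of all genes had no overlap in these directions. Of the members, 27 lay above background on all 6 arrays, 12 on some and 7 on none, and 11 of the 12 called genes were among those 27 (4 higher and 7 lower), the exception being Epha3. Of the 9330 genes above background on all 6 arrays, 5.89% were called higher and 7.14% lower.

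**Figure D1:**
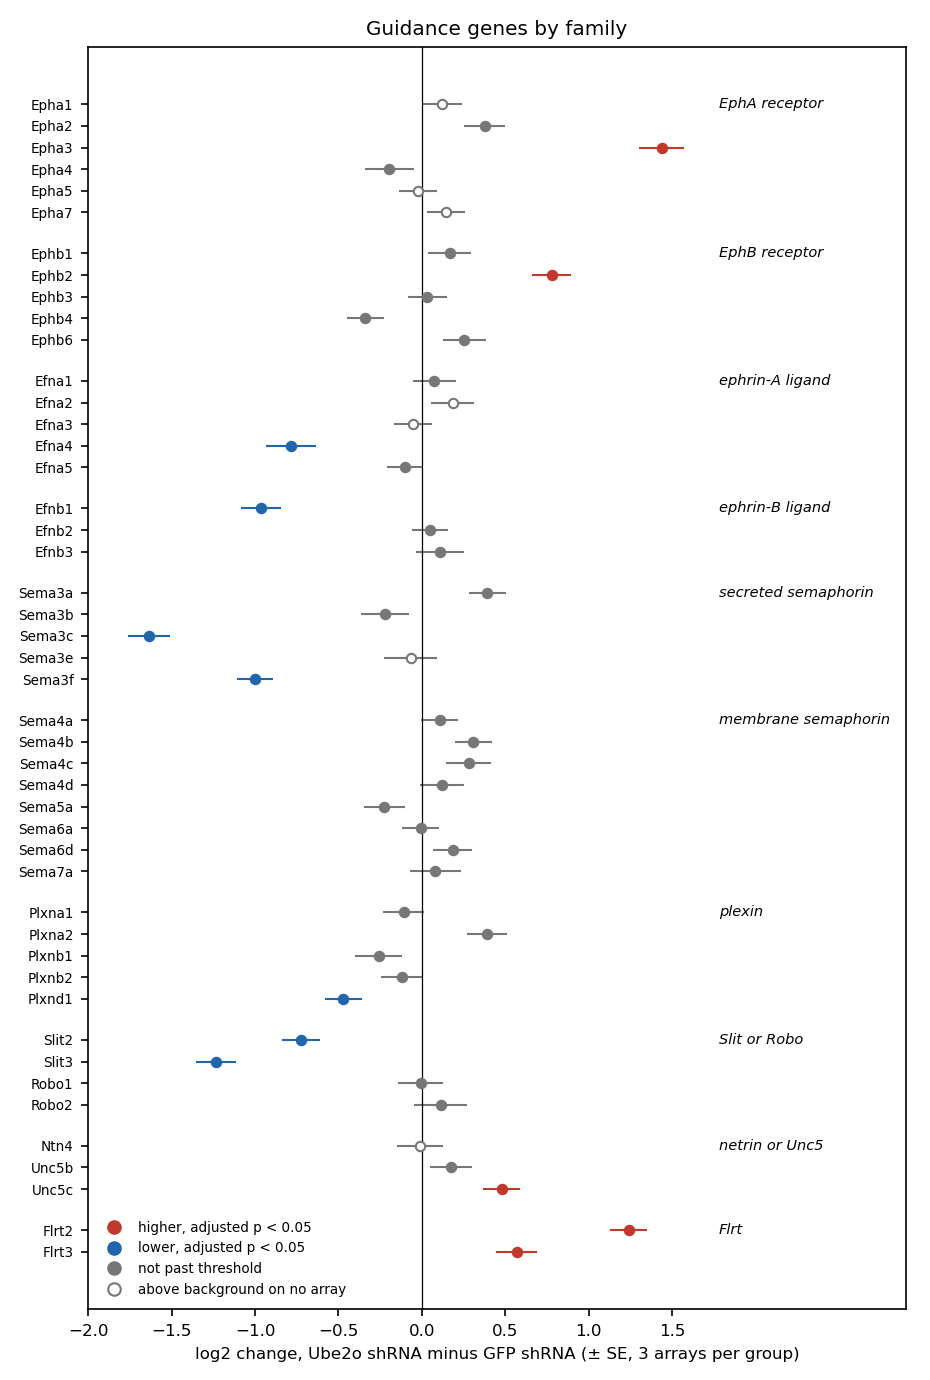
Log2 change of all 46 measured guidance genes, Ube2o shRNA minus GFP shRNA, on the horizontal axis, with the standard error as bars (3 arrays per group) and genes grouped by family on the vertical axis. The 5 red genes rose and the 7 blue genes fell at an adjusted p under 0.05; open circles mark the 7 genes above background on no array.

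Among 10 leukocyte markers 3 also fell (Cd74, Aif1 and Cd14), and the summed deposited signal of the list ranged from 2620 to 2790 with GFP shRNA and from 1710 to 1960 with Ube2o shRNA. Log2 changes of these 10 ran from -2.17 to 0.028 with a median of -0.16. Of the 10, 3 lay above background on all 6 arrays and 6 on 0 arrays, among the latter Ptprc, Adgre1, Itgam, Cd68 and Tyrobp. The endothelial list held 1 fall, Flt1, with summed signals of 1610 to 1700 and 1380 to 1570. Of its 9 markers 1 lay above background on all 6 arrays and 6 on 0 arrays, among the latter Cdh5 and Kdr. Among fibroblast markers Pdgfra fell (log2 change -0.76) and Prrx1 rose (0.46), and the sums of the list overlapped between groups. Of 13 neuron markers, Map2 rose (log2 change 0.69) and Gap43 was at least 1.28-fold lower. Of 8 skeletal muscle markers, Acta1 rose (0.74) and Des fell (-0.65). Of 6 markers of Schwann cells and neural crest glia and 8 of epithelium, 0 passed in limma, and 0 and 1 had an unadjusted p under 0.05. The part of these shifts in the guidance genes was not tested. In RNA from whole cultures, fewer cells making a transcript and less transcript per cell cannot be told apart.

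Promoters are shown for Epha3, Sema3c and Slit3, which are among the members with the largest changes. The windows of Ephb2, Plxnd1 and Slit2 lie wholly, and that of Flrt2 mostly, within the annotated span of their genes. They are included in the counts below but not shown. The sequences are from RefSeq (GRCm38.p6) and cover the 250 bases before the annotated start, 5′ to 3′ on the gene's strand. A promoter was found for 11 of the 12 called genes, all except Sema3f. Capitals mark exact matches, on either strand, to TATAAA (the TATA box), CCAAT (the CCAAT box), GGGCGG (the GC box), CACGTG (an E-box), TGACTCA (the AP-1 site) or TGACGTCA (the cAMP response element), and overlapping matches run together.
Epha3 promoter, chr16:63864176-63864425, minus strand: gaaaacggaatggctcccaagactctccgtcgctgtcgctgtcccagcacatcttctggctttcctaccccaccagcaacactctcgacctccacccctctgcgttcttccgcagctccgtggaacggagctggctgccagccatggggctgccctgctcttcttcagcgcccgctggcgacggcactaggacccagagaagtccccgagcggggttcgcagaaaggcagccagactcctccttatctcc
Sema3c promoter, chr5:17574566-17574815, plus strand: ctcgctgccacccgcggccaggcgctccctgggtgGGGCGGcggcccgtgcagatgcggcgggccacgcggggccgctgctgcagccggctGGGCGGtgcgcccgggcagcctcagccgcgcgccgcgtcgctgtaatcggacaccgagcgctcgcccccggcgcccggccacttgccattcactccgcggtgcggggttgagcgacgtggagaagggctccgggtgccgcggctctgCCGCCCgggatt
Slit3 promoter, chr11:35121206-35121455, plus strand: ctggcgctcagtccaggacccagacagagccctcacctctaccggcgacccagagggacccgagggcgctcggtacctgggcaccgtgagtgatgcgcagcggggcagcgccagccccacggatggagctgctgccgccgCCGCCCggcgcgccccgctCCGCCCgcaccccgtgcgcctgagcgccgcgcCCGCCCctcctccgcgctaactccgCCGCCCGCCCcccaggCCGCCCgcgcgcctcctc

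GGGCGG occurred 3 times in the Sema3c window, 3 times in that of Slit2 and 6 times in that of Slit3. It was found in 4 of the 6 promoters of genes that fell, in 0 of the 5 of genes that rose, and in 32.7% of all 32851 promoters of this length. Of the 55 promoters found for 41 members, 38 held it. TATAAA was found in the Slit2 window and not in that of Slit3, and in 12.4% of all promoters. The E-box CACGTG in the Flrt2 window was the only one among the called genes, against 6.02% of all promoters. CCAAT was found in the windows of Ephb2, Efna4 and Efnb1, and TGACTCA and TGACGTCA in none of the 11. GC content ran from 50% to 71.2% in the promoters of genes that rose and from 54.4% to 78.8% in those of genes that fell, beside a median of 52.4% over all promoters. These matches describe the letters of the windows and say nothing of what binds there.

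Epha3, a receptor for ephrin-A ligands with high affinity for ephrin-A5, was above background on 0 of 3 GFP shRNA arrays and on all 3 Ube2o shRNA arrays. Its brightest probe gave normalized log2 intensities of 6.56, 6.34 and 6.11 with GFP shRNA and 7.72, 7.98 and 7.63 with Ube2o shRNA. The groups did not overlap, and the deposited signals were 174, 155 and 152 against 251, 353 and 272. By this probe as processed, Epha3 was at least 2.29-fold higher with Ube2o shRNA (adjusted p = 2.03e-06), since no control array gave a level above background. The bound holds for this probe and this background correction only. Other probes gave smaller changes, and other settings gave smaller or larger fitted changes. A second probe gave 6.54, 6.42 and 6.64 against 7.28, 7.26 and 7.22, with 1 control array above background (log2 change 0.72, SE 0.11, adjusted p = 0.000676). Another probe gave 6.05, 6.23 and 6.29 against 6.71, 6.96 and 6.86, at least 1.20-fold higher (adjusted p = 0.00231). The remaining pair lay above background on 0 arrays, with log2 changes of 0.041 and -0.096. The 3 probes that passed are annotated to RefSeq transcripts of Epha3, and of the pair that did not, 1 is annotated to a cDNA clone and 1 carries no accession. The fitted log2 change of the brightest probe, which is no bound since the control group was above background on 0 arrays, moved with the background correction: it was 1.44 as processed, 2.00 with an offset of 16 and 0.97 in the series matrix values. The average of all 5 probes had a fitted change of 0.55. Epha3 passed in each of these settings.

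Other EphA receptors did not pass. Epha2, which binds ephrin-A1 and is the common EphA receptor of epithelia, was above background on all arrays. It gave log2 intensities of 7.46, 7.76 and 7.77 with GFP shRNA and 7.97, 7.98 and 8.16 with Ube2o shRNA. These groups did not overlap, but the change of 0.38 (SE 0.12, adjusted p = 0.095) did not pass, and Epha2 passed in 4 of 17 alternative settings: no background correction, the series matrix values and both filters on dim probes. Epha4, which binds both ephrin classes, was above background on 2 control arrays and 1 Ube2o shRNA array, and Epha1, Epha5 and Epha7 on 0 arrays.

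Ephb2, a receptor for ephrin-B ligands that also binds ephrin-A5, rose 1.72-fold. Log2 intensities ran at 8.55, 8.24 and 8.43 with GFP shRNA and 9.19, 9.12 and 9.25 with Ube2o shRNA. All 3 Ube2o shRNA values lay above all controls (log2 change 0.78, SE 0.12, adjusted p = 0.000454). The second probe of Ephb2 had a log2 change of 0.20 and did not pass (adjusted p = 0.553). Ephb4, the ephrin-B2 receptor known from vein identity, gave 10.89, 10.98 and 10.93 against 10.56, 10.60 and 10.63. Its groups did not overlap either, with every Ube2o shRNA array lower, but its log2 change of -0.34 (SE 0.11, adjusted p = 0.0921) did not pass. Ephb3 and Ephb6, a family member without kinase activity, had log2 changes of 0.034 and 0.25 and did not pass, and Ephb1 lay above background on 1 of 6 arrays.

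Of 8 ephrin genes, 2 fell and the other 6 did not pass. Efnb1, an X-linked ligand of EphB receptors, fell 1.95-fold, from 9.61, 9.37 and 9.31 to 8.61, 8.42 and 8.37 on the log2 scale (log2 change -0.96, SE 0.12, adjusted p = 7.03e-05). The highest Ube2o shRNA array lay below the lowest control array. Efna4, a lipid-anchored ligand of EphA receptors, fell 1.72-fold, from 8.29, 7.90 and 7.75 to 7.33, 6.90 and 7.35 (log2 change -0.79, SE 0.15, adjusted p = 0.00385). Its arrays were more spread than those of Efnb1, with SDs of 0.28 and 0.25 in the control and Ube2o shRNA groups, yet did not overlap. The second probe of Efna4 fell as well (log2 change -0.53, adjusted p = 0.00925). With a background offset of 16 the call of Efna4 was lost (adjusted p = 0.0994).

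The other ephrin genes did not pass. Efna1, Efna3 and Efna4 lie in this order on chromosome 3 in the RefSeq annotation. Efna1 had a log2 change of 0.075 (SE 0.13), and Efna3 lay above background on 0 arrays. Efna5, a ligand shared by EphA receptors and Ephb2, gave 10.37, 10.40 and 10.42 against 10.23, 10.31 and 10.35. Its groups did not overlap, with a log2 change of -0.10 (SE 0.11, adjusted p = 0.732). Efnb2, the ligand of Ephb4, gave 9.23, 9.25 and 9.33 against 9.29, 9.30 and 9.36 and had a log2 change of 0.048 (SE 0.11). Efnb3 lay above background on 2 arrays of each group and Efna2 on 0 arrays.

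**Figure D2:**
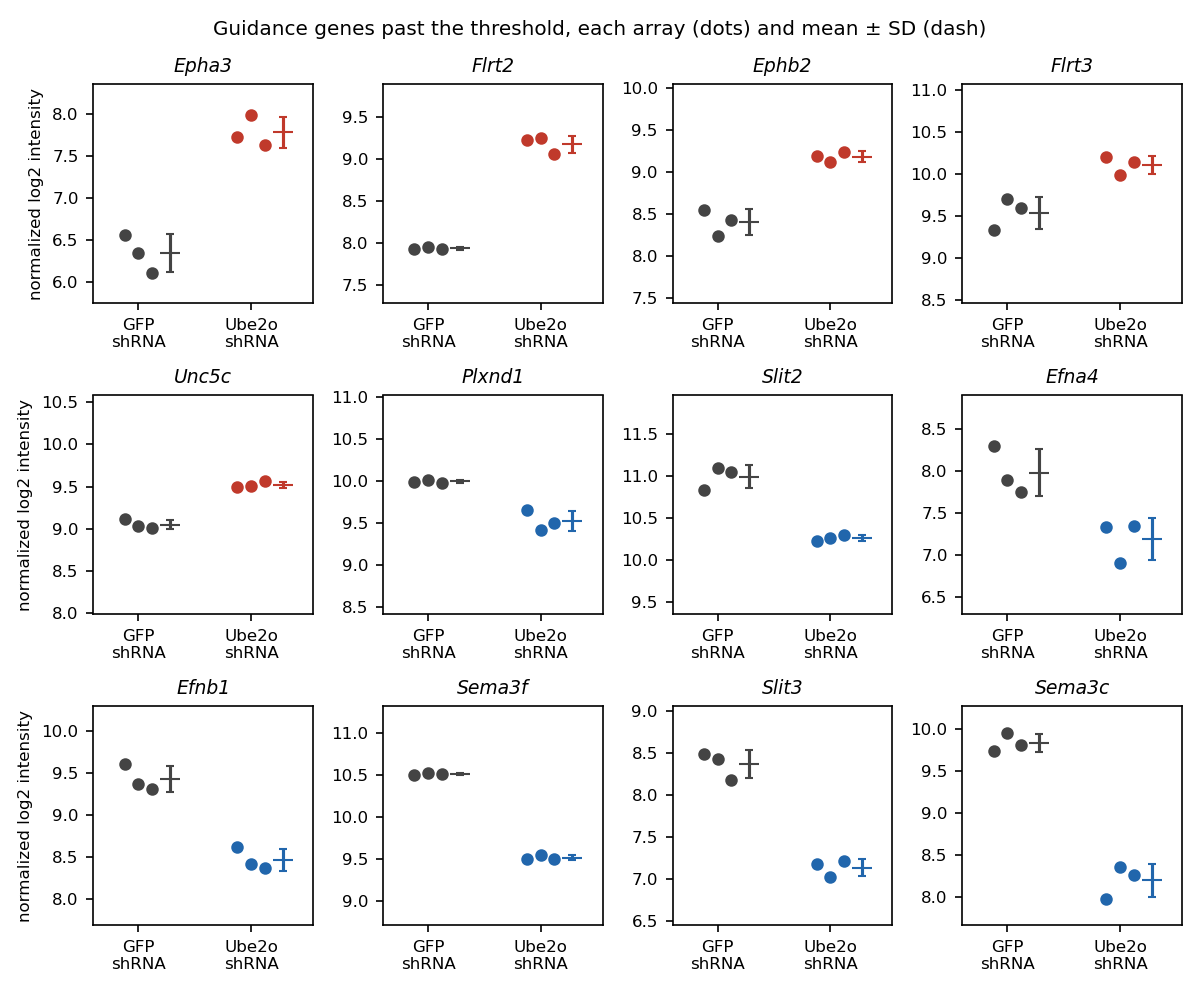
Normalized log2 intensity (vertical axis, every panel spanning a range of the same width) of the 12 guidance genes past the threshold on every array. Dots are arrays and dashes with bars are the mean and SD of 3 arrays; in all 12 panels the Ube2o shRNA dots lie wholly above or wholly below the GFP shRNA dots.

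Of 5 measured secreted semaphorins among the members, 2 fell and the other 3 did not pass. Sema3c, a secreted ligand of neuropilin and plexin receptors known from outflow tract development, had the largest fall of the members, 3.10-fold. Its brightest probe gave 9.73, 9.95 and 9.81 with GFP shRNA and 7.98, 8.35 and 8.26 with Ube2o shRNA on the log2 scale (log2 change -1.63, SE 0.12, adjusted p = 1.60e-07). The second probe gave 9.45, 9.45 and 9.40 against 7.92, 8.15 and 8.07 (log2 change -1.39, adjusted p = 3.56e-07). Both probes separated the groups by more than 1 log2 unit between the nearest arrays.

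Sema3f, a secreted semaphorin that prefers neuropilin 2, fell 2.00-fold with little spread. It gave 10.50, 10.52 and 10.51 with GFP shRNA and 9.49, 9.55 and 9.50 with Ube2o shRNA (log2 change -1.0, SE 0.11, adjusted p = 1.15e-05), and its second probe had a log2 change of -1.0 as well (adjusted p = 1.87e-05). The remaining probe of Sema3f lay above background on 0 arrays. Sema3a, the neuropilin 1 ligand first known as a collapsin, gave 7.91, 8.07 and 7.94 against 8.31, 8.44 and 8.35. Its groups did not overlap, with Ube2o shRNA higher, and it lay just short of the threshold (log2 change 0.39, SE 0.11, adjusted p = 0.0517). Sema3a passed in 6 of 17 alternative settings, and in 0 of the 6 that left out an array. Sema3b, above background on all arrays, had a log2 change of -0.22 (SE 0.14, adjusted p = 0.493), and Sema3e lay above background on 0 arrays.

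Of the 8 membrane-bound semaphorins among the members, 0 passed in limma in either direction. Of these, Sema4b alone had an unadjusted limma p under 0.05 (0.0131). Sema4b, a transmembrane semaphorin, gave 9.30, 9.16 and 9.12 against 9.46, 9.50 and 9.55 on the log2 scale. Its groups did not overlap, with a log2 change of 0.31 (SE 0.11, adjusted p = 0.144), and it passed without background correction, in the series matrix values and with either filter on dim probes. Sema6d, a plexin-A ligand, had no overlap either (log2 change 0.18, adjusted p = 0.477). Log2 changes of the other 6 members of this class ran from -0.22 for Sema5a to 0.28 for Sema4c. Sema4a and Sema6a lay above background on all arrays, while Sema4c, Sema4d, Sema5a, Sema6d and Sema7a did so on some. The Sema6a probe is annotated to a cDNA clone, and the other probes of Sema6a, annotated to a RefSeq transcript, lay above background on 0 arrays.

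Of 5 plexin genes among the members, 1 fell and the other 4 did not pass. Plxnd1, the receptor that binds Sema3e directly and takes part in Sema3c signalling, fell 1.39-fold, from 9.98, 10.01 and 9.97 to 9.65, 9.41 and 9.50 on the log2 scale (log2 change -0.47, SE 0.11, adjusted p = 0.0193). The control arrays lay close together and above all Ube2o shRNA arrays. A second probe of Plxnd1 fell alike (log2 change -0.46, adjusted p = 0.0272) and another, above background on 2 arrays of each group, did not pass. The call of Plxnd1 was lost with a background offset of 16 (adjusted p = 0.141) and in 5 of the 6 fits that left out an array, all but the one without Ube2o shRNA replicate 1. Plxna2, a receptor chain for class 3 and class 6 semaphorins, gave 9.33, 9.0 and 9.06 against 9.57, 9.42 and 9.57. Its groups did not overlap (log2 change 0.39, SE 0.12, adjusted p = 0.0774), and it passed in 7 of 17 alternative settings, among them the fit without GFP shRNA replicate 1. Plxnb2 had a log2 change of -0.12 (SE 0.12), and Plxna1 and Plxnb1, the Sema4d receptor, lay above background on 1 and 2 control arrays and on 0 Ube2o shRNA arrays. The neuropilins, the other receptor chains of the secreted semaphorins, did not pass: Nrp1 gave 12.13, 12.17 and 12.12 against 11.83, 11.84 and 11.90 (log2 change -0.29, SE 0.11, adjusted p = 0.166) and Nrp2 had a log2 change of 0.11 (SE 0.13).

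Both Slit genes among the members fell. Slit1, counted with the other guidance genes, lay above background on 0 arrays (log2 change 0.12, adjusted p = 0.770). Slit3, a secreted Robo ligand, fell 2.35-fold, from 8.49, 8.43 and 8.18 to 7.17, 7.02 and 7.21 on the log2 scale (log2 change -1.23, SE 0.12, adjusted p = 3.3e-06). Slit2, the family member best known for repelling axons at the midline, fell 1.65-fold, from 10.83, 11.09 and 11.05 to 10.23, 10.26 and 10.30 (log2 change -0.73, SE 0.11, adjusted p = 0.000723). For both genes every Ube2o shRNA value was under every control value. Of the 7 probes of Slit2, 3 passed, all lower, with log2 changes of -0.73, -0.70 and -0.47, and the other 4 had changes from -0.32 to 0.25. The second probe of Slit3 lay above background on 0 arrays. With all probes of a gene averaged the log2 changes were -0.33 for Slit2 and -0.64 for Slit3, and both still passed.

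The Robo receptor genes did not pass. Robo1 lay above background on all arrays, at 7.15, 6.70 and 6.61 against 6.79, 6.85 and 6.79, with a log2 change of -0.0074 (SE 0.14). This Robo1 probe is annotated to a cDNA clone and was dim, with deposited signals of 219, 179 and 182 against 170, 201 and 188. Robo2 gave 6.71, 6.13 and 6.93 against 6.63, 6.75 and 6.74, with a log2 change of 0.11 (SE 0.16), and was above background on 5 of 6 arrays. The other probes of Robo1 and Robo2 lay above background on 0 arrays. The control arrays spanned the Ube2o shRNA arrays for both receptors, and whether their change differs from that of the Slit genes was not tested.

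Netrin receptors and Flrt genes were higher where they passed. Unc5c, a repulsive netrin receptor, rose 1.39-fold, from 9.11, 9.03 and 9.0 to 9.50, 9.51 and 9.56 on the log2 scale (log2 change 0.48, SE 0.11, adjusted p = 0.0141), and a second probe rose by the same amount (0.47, adjusted p = 0.0256). The arrays of each group lay close together. The call of Unc5c was nevertheless lost with a background offset of 16, with median scaling, with probes averaged and without GFP shRNA replicate 2, GFP shRNA replicate 3 or Ube2o shRNA replicate 3, where the adjusted p reached 0.141. Unc5b, a netrin receptor of vessels that also binds Flrt3, gave 10.31, 9.89 and 10.23 against 10.23, 10.39 and 10.34 and did not pass (log2 change 0.18, SE 0.13). Ntn4, a netrin of basement membranes, lay above background on 0 arrays.

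Flrt2, a membrane protein with leucine-rich repeats that binds Unc5 receptors, rose 2.36-fold. It gave 7.93, 7.96 and 7.93 with GFP shRNA and 9.23, 9.25 and 9.06 with Ube2o shRNA (log2 change 1.24, SE 0.11, adjusted p = 1.22e-06). Its control arrays were nearly equal, with an SD of 0.017, and all Ube2o shRNA arrays lay more than 1 log2 unit above them. Genes of chromosome 12, which holds Flrt2, had a median log2 change of 0.11, and Flrt2 kept a log2 change of 1.13 (adjusted p = 3.94e-06) with that median subtracted. Flrt3 rose 1.48-fold, from 9.33, 9.70 and 9.59 to 10.20, 9.98 and 10.14 (log2 change 0.57, SE 0.12, adjusted p = 0.0101). Its call was lost with a background offset of 16, with probes averaged, without GFP shRNA replicate 1 and without Ube2o shRNA replicate 1, where the adjusted p reached 0.168. Its second probe lay above background on 0 arrays.

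**Figure D3:**
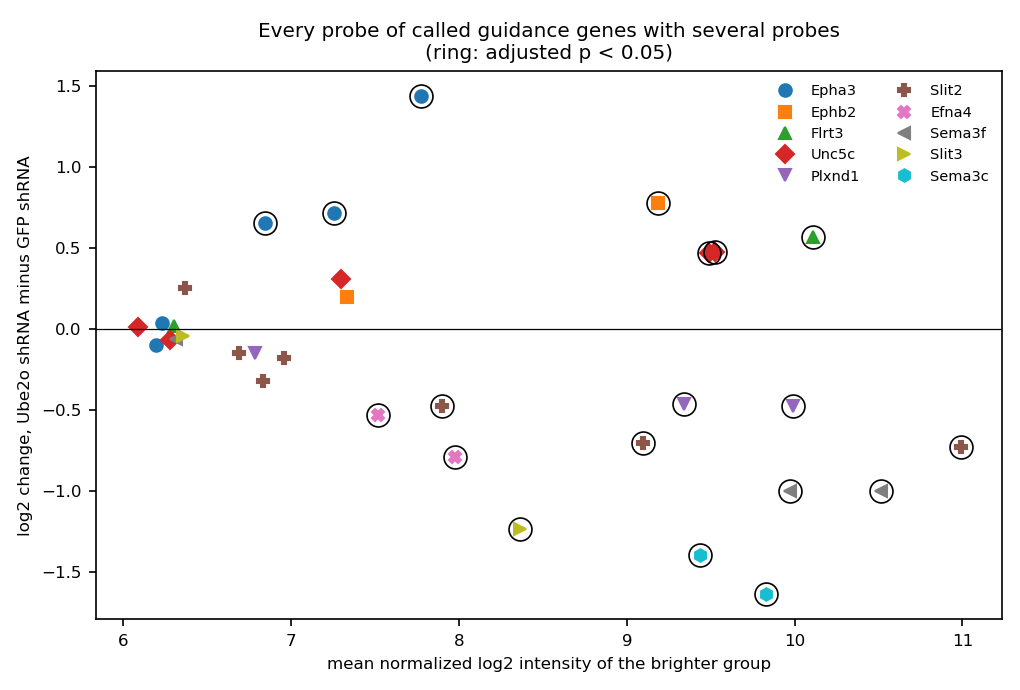
Log2 change (vertical axis, Ube2o shRNA minus GFP shRNA) of every probe of the 10 called guidance genes with several probes, against the mean normalized log2 intensity of its brighter group (horizontal axis). Rings mark probes with an adjusted p under 0.05; of the 23 probes other than the brightest of a gene, 9 passed in the direction of the brightest and 0 in the other.

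The probes of the called members did not contradict each other in direction among those that passed. Of the 10 called genes with several probes, 7 had a second probe called the same way (Epha3, Efna4, Sema3c, Sema3f, Plxnd1, Slit2 and Unc5c), while Ephb2, Slit3 and Flrt3 rested on 1 passing probe each. Efnb1 and Flrt2 had a single probe. Of the 23 other probes of called genes, 9 were called the same way, 0 the opposite way, and 7 lay above background on 0 arrays.

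Receptor and ligand genes of the same pair were set side by side. In the ephrin-B system Ephb2 rose by 0.78 on the log2 scale while the ligand gene Efnb1 had a log2 change of -0.96. The other ephrin-B genes, Efnb2 and Efnb3, had 0.048 and 0.11, and Ephb4, a receptor of the Efnb2 product, had -0.34, none past the threshold. In the ephrin-A system Epha3, by its brightest probe as processed, was at least 2.29-fold higher while Efna4 was 1.72-fold lower. Epha2, Efna1 and Efna5, which did not pass, had log2 changes of 0.38, 0.075 and -0.10. Among secreted semaphorins Sema3c and Sema3f fell. Plxnd1, which takes part in Sema3c signalling, fell as well, but passed in only 1 of the 6 fits that left out an array. Sema3a, Plxna2, Nrp1 and Nrp2 had log2 changes of 0.39, 0.39, -0.29 and 0.11 that did not pass. For Unc5 receptors and their Flrt partners both sides were higher where they passed, Unc5c by 0.48, Flrt2 by 1.24 and Flrt3 by 0.57. Unc5b and Flrt1, with log2 changes of 0.18 and -0.034, did not pass. Of 17 alternative settings, Unc5c passed in 11 and Flrt3 in 13. Adgrl1, a latrophilin gene and so another Flrt partner, went the other way, with a log2 change of -0.45, and passed in 10 of 17.

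Of 33 other measured guidance receptors and ligands, 2 rose, 1 fell and 30 did not pass, with a median log2 change of 0.009. Neo1, encoding neogenin, a DCC-family receptor for netrins and repulsive guidance molecules, gave 10.32, 10.63 and 10.70 against 11.25, 11.37 and 11.12 (log2 change 0.69, SE 0.13, adjusted p = 0.00257). Its groups did not overlap, but its other 4 probes had log2 changes from 0.023 to 0.20 and did not pass, and with probes averaged the change was 0.22 (adjusted p = 0.18); its call was also lost with the offset of 16. Rgmb, a neogenin ligand, was at least 1.29-fold higher (adjusted p = 0.00944), from 0 control arrays above background to 3 Ube2o shRNA arrays. Its call was lost with probes averaged, with the offset of 16, without GFP shRNA replicate 1 and without replicate 2 of Ube2o shRNA. Adgrl1, encoding latrophilin 1, a receptor that binds Flrt proteins, fell (-0.45, SE 0.12, adjusted p = 0.0319), and this call was lost in 5 of the 6 fits that left out an array, all but the one without GFP shRNA replicate 3, with the offset of 16 and with probes averaged. The second probe of Adgrl1, above background on all arrays, had a log2 change of -0.091 and did not pass.

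Of 46 measured genes of cytoplasmic guidance signalling, 1 rose, 4 fell and 41 did not pass, with a median log2 change of 0.034. Pak3, a kinase activated by Rac and Cdc42, had a log2 change of -0.71 (SE 0.12, adjusted p = 0.00113). Srgap3, a GTPase-activating protein that binds Robo receptors, had -0.60 (adjusted p = 0.0042), and the actin-severing gene Cfl1, encoding cofilin, had -0.56 (adjusted p = 0.00743). The Cfl1 probe was dim, with deposited signals of 241, 283 and 291 with GFP shRNA and 177, 210 and 210 with Ube2o shRNA. The lowest signal above background on an array ran from 159.5 to 179.8. Enah, an actin regulator of the Ena/VASP family named after its values were seen, fell by 0.56. Dpysl3, encoding a collapsin response mediator protein, rose by 0.67 (SE 0.12, adjusted p = 0.00264). With all probes averaged Srgap3 and Enah did not pass, and with an offset of 16 none of these 5 did. Enah also lost its call without replicate 1 of GFP shRNA and without replicate 1 of Ube2o shRNA. Of 8 measured proteases that shed or cleave Eph receptors and ephrins, 1 fell, Mmp9 (log2 change -0.87, SE 0.11, adjusted p = 6.86e-05), and 7 did not pass.

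The 12 member calls were recomputed under 17 other settings. Of these genes, 7 passed in all 17 (Ephb2, Efnb1, Sema3c, Sema3f, Slit2, Slit3 and Flrt2), and Epha3 passed in the 16 that kept its probe. Efna4 passed in 16, Flrt3 in 13, and Plxnd1 and Unc5c in 11 each. No member past the threshold as processed changed its direction in any setting. Of the members not called, 5 passed in at least 1 setting: Epha2, Sema3a, Sema4b and Plxna2, all higher, and Ephb4, lower.

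**Figure D4:**
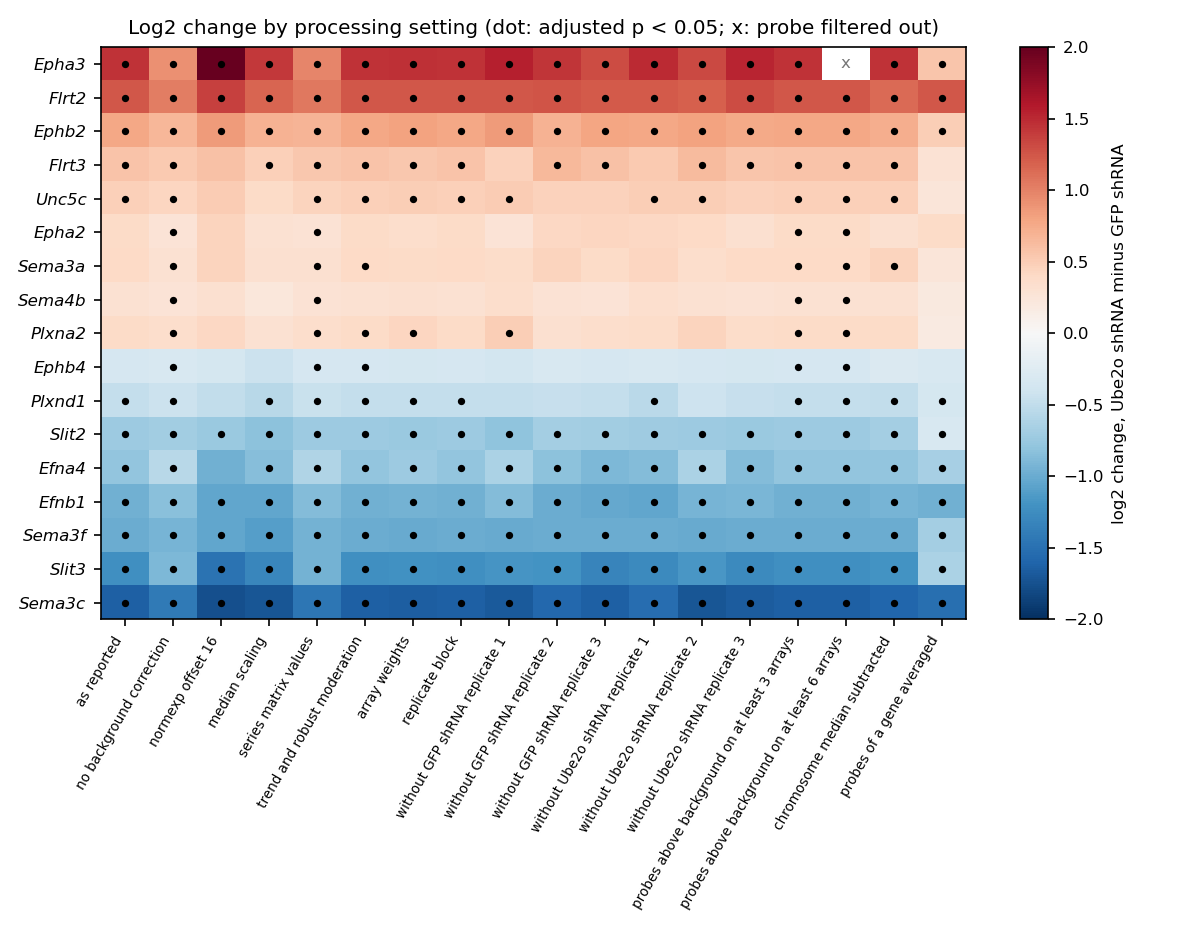
Log2 change (colour, Ube2o shRNA minus GFP shRNA) of the 12 called guidance genes and of the 5 that passed in other settings only (vertical axis), under the reported processing and 17 alternatives (horizontal axis). Dots mark an adjusted p under 0.05 and the x marks a probe of Epha3 left out by a filter; the colours of a gene keep their sign across the settings. Among the 12 called genes dots are missing most often for Unc5c and Plxnd1 (6 settings each) and Flrt3 (4), and the 5 other genes hold dots in 4 to 7 settings.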

How the data were processed

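The authors deposited probe intensity on a linear scale, not normalized between arrays, and a series matrix of log2 values. The log2 values the authors deposited were found to be quantile normalized and to keep the probe order of the intensity. For the scanner software and any background correction, the sources used here say nothing. Per the labels' protocols, an RNeasy kit gave the RNA and the Illumina TotalPrep kit the biotinylated cRNA.

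Without detection p-values or negative control probes the planned neqc could not be run, so the background of the intensity was corrected by normexp (saddle, offset 50), as planned for that case. Quantile normalization and log2 followed. The offset compresses changes of dim genes. All 45281 probes were fitted with limma 3.58.1 in R 4.3.3 (lmFit, eBayes, two-sided) and adjusted by Benjamini-Hochberg over all probes, calling an adjusted p under 0.05. A positive change means higher with Ube2o shRNA. A probe was above background on an array at a one-sided p under 0.05 in a normal distribution centred on the mode of the log2 signal, with the spread taken below the mode. Where a group was above background on 0 arrays, "at least N-fold" sets the bright group's mean against, per array, the higher of the dim probe's value and the lowest normalized value above background. The number of arrays limits precision.

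Probes were named from the platform annotation, updated through gene identifiers, accessions and synonyms of the RefSeq table: 35784 had 1 symbol, 0 several and 9497 none here. All members are accounted for; from the other lists, up to 4 called genes with the smallest p are named. Members and lists were chosen with earlier results of these data known. Alternatives covered background, scaling, moderation, array weights, the replicate block, each array left out, filters, chromosome medians and averaged probes. Same-numbered arrays correlated at 0.026, -0.12 and 0.080 in their deviations from group means, so the numbers were not taken to pair arrays.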

Additional observations from a re-analysis of the deposited data

How the results depend on the processing

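As processed, 5 members were higher and 7 lower, and 1026 of all probes were higher and 1220 lower. The members higher were 9 without background correction, 9 from the series matrix, 9 and 8 with the filters on 3 and on 6 arrays, 3 with the offset of 16 and 3 with probes averaged, and the members lower ran from 5 to 8 over all these. All probes higher and lower numbered 2025 and 1944 without background correction, 2011 and 1930 from the series matrix, and 179 and 405 with the offset of 16. Probes higher were 567 with median scaling (beside 1544 lower, so 26.9% of calls were higher instead of 45.7%), 1647 with trend and robust moderation, and 1735 and 1942 with the filters on 3 and 6 arrays. With 1 array left out, 4 or 5 members were higher, 6 or 7 lower, and 616 to 730 probes higher and 831 to 960 lower; probes higher were 616 and 666 without GFP shRNA replicates 1 and 3, and 636 and 634 without replicates 1 and 3 of Ube2o shRNA. More probes were higher than lower without background correction, from the series matrix and with the filter on 6 arrays, and fewer in the other settings; the cause was not tested. With the replicate number as a block, 5 members were higher and 7 lower, as without it, and 968 probes were higher and 1173 lower; the arrays share only a number. Ube2o passed in all 17 alternatives, with log2 changes from -1.54 to -1.35. Over the 12 called members, 186 of 203 combinations of gene and alternative passed in the same direction and 0 reversed; changes of sign where a gene passed in neither setting were not counted. Signal over background limited the account: 7 members were above background on no array.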
